A study of Mus musculus with 11 samples.

Results

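The 9 genes described here encode the local machinery of plasminogen activation and of tissue factor signalling: Plaur, Plau, Plat, Serpine2, Serpinb2, F3, Tfpi, Thbd and F2rl1. They were picked by symbol, after Plaur and F3 had been seen to be higher in keratinocytes of mice without Langerhans cells (LCs), and are 9 of the 52550 genes in the deposited table. All 9 were matched by Ensembl gene ID, and 7 of them were among the 14419 genes that exceeded 1 CPM (reads of a gene scaled to the total of its library) in at least 2 of the 11 libraries. Serpine2 and Tfpi each exceeded 1 CPM in 1 library and were not tested.

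RNA was sequenced from keratinocytes (KCs) and dendritic epidermal T cells (DETCs), the gamma-delta T cells of mouse epidermis, sorted from flank skin of female mice at 8 weeks of age. The groups were WT KCs (n = 3), LC-/- KCs (n = 3), WT DETCs (n = 3) and LC-/- DETCs (n = 2, numbered 2 and 3 after the KC libraries that carry the same number in the labels). LC-/- mice carry huLangerin-DTA, a transgene in which the human langerin promoter drives the A subunit of diphtheria toxin, and lacked LCs from birth, so both populations developed without LCs. WT mice were littermates, the sources give no further treatment, and the labels call the LC-/- condition DTA. All cells were released with trypsin, itself a serine protease, and both gates took live single cells negative for MHC-II, langerin and c-kit, with CD45 absent on KCs and present on DETCs. The libraries held 13491075 to 19750440 reads.

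Plasminogen is cleaved to plasmin, a broad protease, by urokinase (Plau), which is held at the cell surface by its receptor (Plaur), or by tissue plasminogen activator (Plat). Both activators are blocked by serpins, among them protease nexin 1 (Serpine2) and plasminogen activator inhibitor 2 (Serpinb2), the latter a known product of keratinocytes. Tissue factor (F3) starts coagulation by binding factor VII and is restrained by tissue factor pathway inhibitor (Tfpi), thrombomodulin (Thbd) turns thrombin towards activation of protein C, and protease-activated receptor 2 (F2rl1) is a G protein-coupled receptor opened by trypsin-like proteases and by the complex of tissue factor and factor VIIa.

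On GRCm38, Plaur lies at chr7:24462484-24475968, Plau at chr14:20836660-20843385 and Plat at chr8:22757727-22782844, all on the plus strand. Serpinb2 (chr1:107511423-107535478) and F3 (chr3:121723537-121735048) are also on the plus strand. Serpine2 (chr1:79794197-79861180), Tfpi (chr2:84432855-84476775), Thbd (chr2:148404466-148408188) and F2rl1 (chr13:95511732-95525227) are on the minus strand.

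Promoter sequences are shown for Plaur, F3 and Serpinb2, which had the largest differences between genotypes in KCs among the 7 members above the expression filter. Each is the 250 bases before a RefSeq transcription start on the plus strand of GRCm38.p6, at chr7:24462233-24462482, chr3:121723287-121723536 and chr1:107511173-107511422. Capitals mark matches to TGANTCA, a loose form of the binding motif of AP-1 with any base at N. This pattern reads the same on both strands.
Plaur promoter: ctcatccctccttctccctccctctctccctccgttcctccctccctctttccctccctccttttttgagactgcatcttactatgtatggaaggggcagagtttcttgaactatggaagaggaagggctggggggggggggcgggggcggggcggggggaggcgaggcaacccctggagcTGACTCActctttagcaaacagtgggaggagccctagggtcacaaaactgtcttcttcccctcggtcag
F3 promoter: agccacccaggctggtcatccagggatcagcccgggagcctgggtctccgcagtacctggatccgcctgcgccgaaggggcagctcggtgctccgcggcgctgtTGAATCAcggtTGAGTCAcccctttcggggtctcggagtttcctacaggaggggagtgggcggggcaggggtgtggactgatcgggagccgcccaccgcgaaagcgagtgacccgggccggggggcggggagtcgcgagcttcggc
Serpinb2 promoter: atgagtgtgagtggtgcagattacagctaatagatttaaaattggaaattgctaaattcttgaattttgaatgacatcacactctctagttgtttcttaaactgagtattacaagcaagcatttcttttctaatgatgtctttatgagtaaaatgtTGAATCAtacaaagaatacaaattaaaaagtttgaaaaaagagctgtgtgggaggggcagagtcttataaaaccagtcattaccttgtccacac
The match in Plaur began 69 bases before the start site, and that in Serpinb2 94 bases before it. F3 held a pair of matches, beginning 146 and 135 bases before its start. Of 32851 mouse promoter windows of this length, 6.75% held at least 1 match and 0.338% held at least 2. The letters of the Sp1 box, GGGCGG, were found on either strand 3 times each in the Plaur and F3 windows and 0 times in that of Serpinb2, against 32.7% of windows with at least 1. The windows of Serpine2 and Tfpi held no TGANTCA, and sequences were not used here for Plau, Plat, Thbd and F2rl1. A match is a description of the letters and not of bound factor.

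The genotype difference in KCs is given as a description, without a test, because the genes were picked from it. The receptor Plaur had 250.05, 242 and 363 normalized counts in WT KCs and 979, 768 and 992 in LC-/- KCs, where a normalized count is a read count divided by the size factor of its library. The lowest LC-/- library was thus above the highest WT library, and the ratio of the means was 3.2. On the log2(normalized count + 1) scale the difference was 1.69 (SE 0.20), the largest among the 7 members above the expression filter.

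Its ligand urokinase (Plau) was measured at 638, 605 and 718 normalized counts in WT KCs and at 808, 738 and 765 in LC-/- KCs. The groups did not overlap, but the ratio of the means was 1.18 and the log2 difference 0.24 (SE 0.08). For the other activator, Plat, the values were 189.6, 233 and 219.6 in WT KCs and 205, 205 and 219.6 in LC-/- KCs. The 2 genotypes overlapped, with a log2 difference of -0.02 (SE 0.10).

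Of the inhibitors, Serpinb2 was by far the more abundant. It was counted at 75761, 70747 and 90019 in WT KCs and at 128790, 102333 and 161596 in LC-/- KCs, with no overlap. The ratio of the means was 1.66 and the log2 difference 0.71 (SE 0.24). Serpinb2 lies on chromosome 1 and overlaps Serpinb10 on the same strand. How reads in the shared part were counted is not given in the sources used here. Serpine2 had 11.3, 7.4 and 10.4 normalized counts in WT KCs and 7.7, 15.3 and 14.7 in LC-/- KCs, which overlapped.

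F3, the cellular starter of coagulation, was measured at 4116, 3472 and 4794 normalized counts in WT KCs and at 9827, 6624 and 10110 in LC-/- KCs. All LC-/- libraries were above all WT libraries, the ratio of the means was 2.15, and the log2 difference was 1.09 (SE 0.21). Its inhibitor Tfpi was at 3 or fewer reads in each KC library, so no fold is given. F2rl1, the receptor that the tissue factor complex can cleave, had 3875, 3708 and 4076 normalized counts in WT KCs and 4959, 4822 and 5297 in LC-/- KCs. Its groups did not overlap either, although the log2 difference was only 0.37 (SE 0.06). The anticoagulant receptor Thbd had 220.3, 229 and 191 in WT KCs and 194, 242 and 174 in LC-/- KCs, which overlapped at a log2 difference of -0.08 (SE 0.15).

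Among the 7 members above the expression filter, 5 did not overlap between genotypes with LC-/- KCs higher (Plaur, Plau, Serpinb2, F3 and F2rl1), where 16.6% of all tested genes did so. Tfpi, below that filter, did not overlap with LC-/- KCs lower, at 0 to 3 reads a library (14.9% of all tested genes, which leave out Tfpi). Plat, Serpine2 and Thbd overlapped. In the fit across all genes, 7.23% passed an adjusted p of 0.05, 5.37% as higher, and 3 of the 7 members were among them. This count is no test of the members and nothing is read from it, since they were chosen on this contrast. LC-/- KC library 2 was the lowest of the 3 for each of those 5 genes. In bulk libraries of sorted cells, fewer cells of a type and less RNA per cell cannot be told apart.

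**Figure D1:**
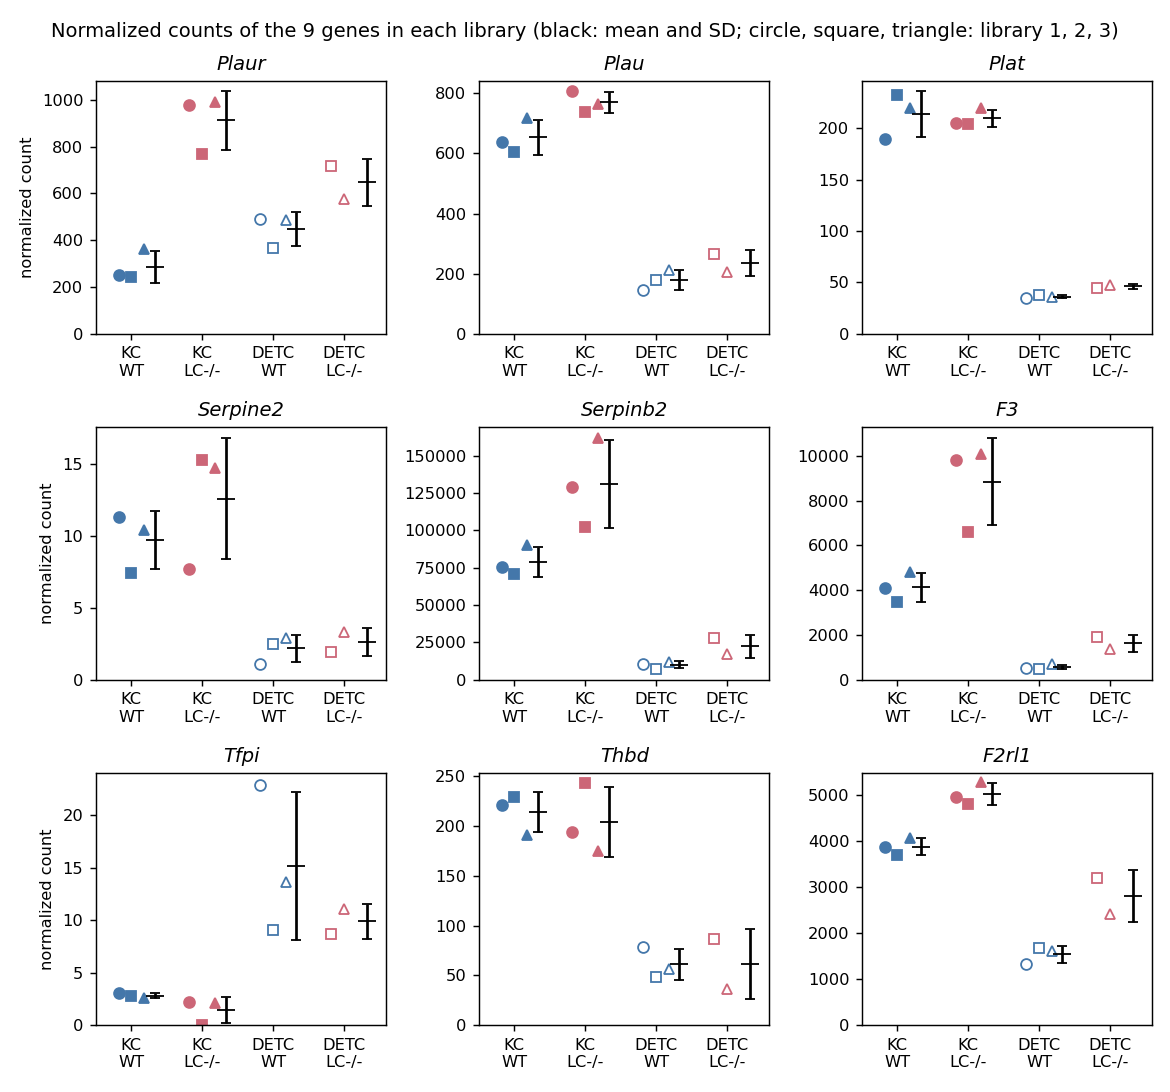
Normalized counts of the 9 genes (vertical axes from 0, each with its own range) in WT (blue) and LC-/- (red) libraries of KCs (filled) and DETCs (open), with the mean and SD of each group in black. Plaur, F3, Serpinb2, F2rl1 and Plau are higher in every LC-/- KC library than in any WT KC library, whereas Plat and Thbd overlap.

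Whether the same genes differed between genotypes in DETCs was tested with limma over all 14419 genes. The stated reason for choosing the genes did not use this contrast, although its earlier results were known when they were chosen. DETC libraries also held keratinocyte transcripts, described below, so the contrast is not independent of the KC values. F3 had 527, 481 and 682 normalized counts in WT DETCs and 1898 and 1360.0 in LC-/- DETCs. Both LC-/- libraries were above all WT libraries, the log2 difference was 1.53 (SE 0.18), and F3 passed (adjusted p = 0.0124, limma, 3 against 2 libraries).

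Serpinb2 was measured at 10184, 7278 and 11953 in WT DETCs and at 27644 and 16929 in LC-/- DETCs. The groups did not overlap, and the log2 difference of 1.17 (SE 0.25) was just past the threshold (adjusted p = 0.0488, limma). F2rl1 had 1335, 1684 and 1626 normalized counts in WT DETCs and 3211 and 2414 in LC-/- DETCs. It too did not overlap, with a log2 difference of 0.85 (SE 0.15, limma adjusted p = 0.0279).

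Thus F3, Serpinb2 and F2rl1 were called higher in the LC-/- DETC libraries. These are 3 of 7 members, where 3.56% of all tested genes were called, 3.13% as higher, and no member was called lower. DETC libraries also held keratinocyte transcripts, described below, and their part in the 3 calls was not tested. The 3 calls were not equally firm. F3 passed whichever of the 3 WT libraries was left out, and Serpinb2 and F2rl1 passed in none of those fits. The log2 difference of F3 was 1.29 to 1.77 with any of the 5 libraries left out. Without WT library 1, 2 or 3 the adjusted p was 0.111, 0.125 and 0.0818 for Serpinb2 and 0.057, 0.0714 and 0.0818 for F2rl1 (limma). Leaving out an LC-/- library left 1 in that group. For Serpinb2 the log2 difference was then 0.82 without library 2 and 1.53 without library 3. For F2rl1 it was 0.65 and 1.06. LC-/- library 2 had the highest median level of keratinocyte markers of the 5 DETC libraries, 26.96% of the KC level. Serpinb2 did not pass after quantile normalization (limma adjusted p = 0.106). Without the variance trend, where limma called 0 of all genes (1554 higher and 853 lower had an unadjusted p below 0.05, and DESeq2 called 1079), F3, Serpinb2 and F2rl1 had adjusted p of 0.179, 0.208 and 0.185.

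The receptor Plaur, with the largest difference in KCs, had 489, 366 and 488 normalized counts in WT DETCs and 718 and 575 in LC-/- DETCs. Its groups did not overlap, but it did not pass (log2 difference 0.53, SE 0.16, 95% interval 0.16 to 0.91, limma adjusted p = 0.124). Whether its difference was smaller in DETCs than in KCs was not tested, since the KC values chose the gene. Its ligand Plau had 146, 177 and 211 in WT DETCs and 265 and 205 in LC-/- DETCs, and these groups overlapped. The log2 difference of 0.40 (SE 0.20) did not pass, with a 95% interval from -0.06 to 0.85 (limma adjusted p = 0.320).

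Plat, the other activator, was at 34.9, 38.0 and 36.0 in WT DETCs and at 44.7 and 47.5 in LC-/- DETCs. The groups did not overlap, yet the log2 difference of 0.34 (SE 0.24, 95% interval -0.22 to 0.90) did not pass (limma adjusted p = 0.505). Thbd had 78.6, 48.7 and 56.4 in WT DETCs and 86.4 and 36.5 in LC-/- DETCs. The 2 LC-/- libraries lay on either side of all WT libraries, and the log2 difference was -0.09 with a 95% interval from -0.98 to 0.80 (limma adjusted p = 0.928). By overlap alone, 5 of the 7 members above the filter were higher in LC-/- DETCs (Plaur, Plat, Serpinb2, F3 and F2rl1), against 21.3% of all tested genes.

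The 2 members below the filter gave little information on genotype in DETCs. Tfpi had 22.9, 9.1 and 13.6 normalized counts in WT DETCs and 8.7 and 11.1 in LC-/- DETCs, or 46 and 19 reads in all. The ratio was 0.674 with an exact 95% interval from 0.373 to 1.17. Serpine2 was at 3.3 or fewer normalized counts in all 5 DETC libraries, 7 and 5 reads in all.

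**Figure D2:**
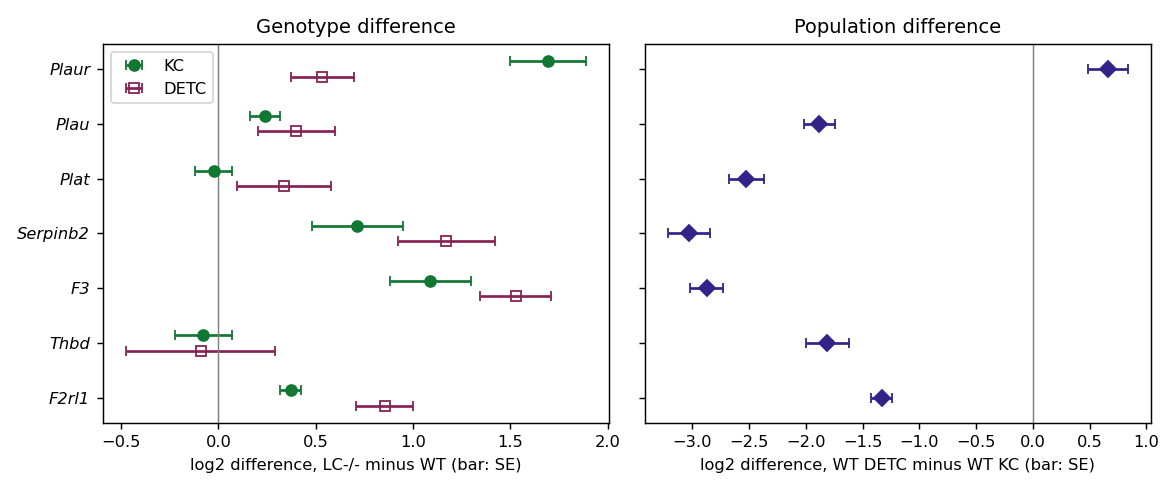
Log2 differences (log2(normalized count + 1) scale, bars are SE) of the 7 members above the filter. The left panel gives LC-/- minus WT in KCs (circles, a description) and DETCs (open squares), and the right panel WT DETCs minus WT KCs. Plaur has the largest KC difference (1.69), F3 the largest DETC difference (1.53), and Plaur alone lies to the right of 0 in the comparison of populations.

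Which population carried each gene was asked in WT mice alone. This comparison shares the WT KC libraries with the KC description, and 76% of all tested genes were called in it, 41% as higher and 35.1% as lower in DETCs, so a call by itself says little. All 7 members were called, and Plaur alone was higher in DETCs. Its 3 WT DETC libraries (366 to 489 normalized counts) were all above its 3 WT KC libraries (242 to 363), by 0.66 on the log2 scale (SE 0.17, limma adjusted p = 0.00638). The margin between the closest libraries was small.

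The other 6 were lower in DETCs. Serpinb2 and F3 had the largest differences, at -3.03 (SE 0.19, limma adjusted p = 3.26e-07) and -2.87 (SE 0.15, limma adjusted p = 8.45e-08) on the log2 scale. The activators Plat and Plau were lower by differences of -2.52 (SE 0.15) and -1.88 (SE 0.14), with limma adjusted p of 2.97e-07 and 1.12e-06. Thbd differed by -1.81 (SE 0.19, limma adjusted p = 1.64e-05) and F2rl1 by -1.33 (SE 0.09, limma adjusted p = 9.01e-07). In DETCs the receptor for urokinase was therefore higher, and urokinase itself lower, than in KCs. Tfpi, the inhibitor of tissue factor, was also seen mainly in DETCs, with 46 reads in WT DETCs and 9 in WT KCs, a ratio of 5.2 after scaling (exact 95% interval 2.51 to 12.1). Serpine2 went the other way, with 7 and 31 reads, a ratio of 0.23 (exact 95% interval 0.0854 to 0.532). These 2 intervals cover counting error only. By overlap, 2 of the 9 members lay higher and 7 lower in WT DETCs. Among all tested genes, which leave out Tfpi and Serpine2, 42.7% and 36.7% did so.

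DETC libraries also held transcripts typical of KCs, which bears on each of these values. Over 20 keratinocyte markers, the median level in a DETC library was 15.5, 16.7 and 19.1% of the mean KC level in the 3 WT libraries and 26.96 and 16.9% in LC-/- libraries 2 and 3. F3 stood at 12.8, 11.7 and 16.5% of its WT KC mean in the WT DETC libraries, and at 21.4 and 15.4% of its LC-/- KC mean in the LC-/- DETC libraries. Serpinb2 stood at 12.9, 9.23, 15.2, 21.1 and 12.9% in the same order. Both genes were thus below the marker median in all 5 DETC libraries, and DETC expression of F3 and Serpinb2 and keratinocyte RNA in the DETC libraries cannot be told apart.

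The marker median times the KC mean of F3 comes to 639, 691 and 787 normalized counts in the WT DETC libraries and to 2387 and 1492 in LC-/- libraries 2 and 3, above the measured F3 value in each of the 5. For Serpinb2 in LC-/- library 3 it comes to 22060, where 16929 was measured. The marker median of that library lay within the range of the WT libraries. For F2rl1 the same product gives 602, 651 and 741 for the WT libraries, then 1355 and 847 for LC-/- libraries 2 and 3, below the measured value in each. Relative to the marker median, F3 stood at 0.696 to 0.866 in the WT and at 0.795 and 0.911 in the LC-/- DETC libraries.

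Plaur was placed differently. It stood at 171.5, 128 and 171 percent of its KC mean in WT DETCs and at 78.7 and 63.0% in LC-/- DETCs, above each of the 20 markers in all 5 libraries. The marker median times the KC mean of Plaur comes to 44.2, 47.7 and 54.4 normalized counts in the WT DETC libraries. For LC-/- libraries 2 and 3 it comes to 246 and 154, so this product too was higher in LC-/- libraries. It lay below the measured value in all 5, and the part of keratinocyte RNA in the Plaur genotype difference was not tested. F2rl1 stood at 34.3 to 63.9%, 2.19 to 2.85 times the marker median, with 16 to 20 of the 20 markers below it. Plau lay at 1.28 to 1.69 times the marker median, with 14 to 16 of the 20 markers below it. Thbd lay at 1.06 to 2.38 times, with 13 to 19 markers below it, and Plat at 0.79 to 1.35 times, on both sides of the median. These 3 genes lay within the range of the markers in all 5 libraries. For Plau, Thbd and Plat too, DETC expression and keratinocyte RNA in the DETC libraries cannot be told apart.

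**Figure D3:**
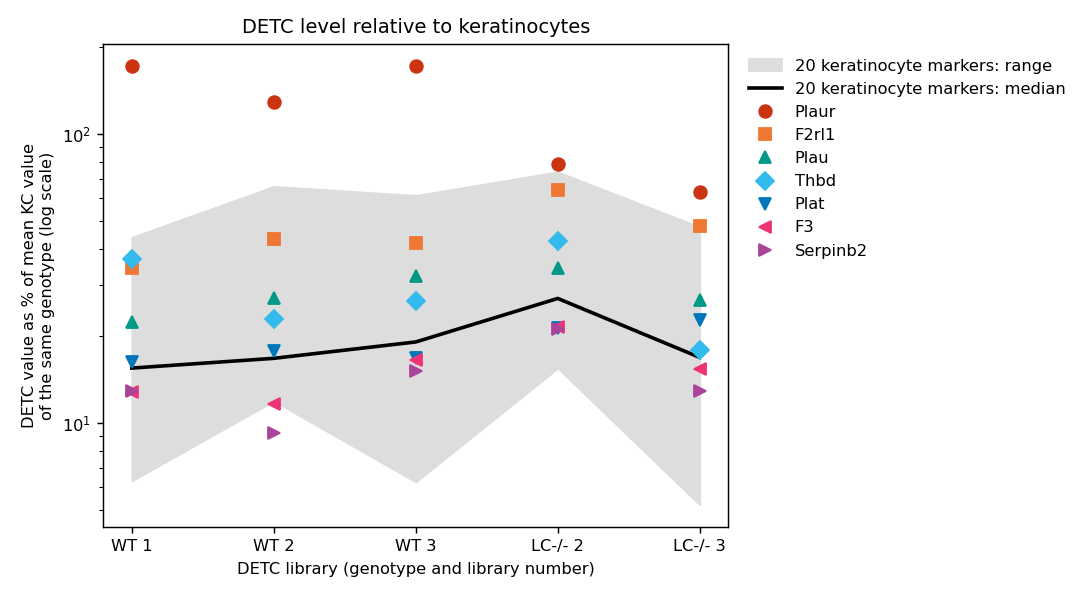
DETC level as a percentage of the mean KC level of the same genotype (log axis) for 7 members in the 5 DETC libraries, with the range (grey) and median (line) of 20 keratinocyte markers. Plaur lies above all markers in each library, and F3 and Serpinb2 lie below the marker median in each.

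Levels can be compared between genes only per length, here as normalized counts per kb of annotated exon, a length that joins all isoforms of a gene. In WT KCs the order was Serpinb2 (33564 ± 4256, SD, n = 3), F3 (1633 ± 262), F2rl1 (1418 ± 67.1), Plau (276 ± 24.6), Plaur (109 ± 25.9), Thbd (57.3 ± 5.35), Plat (34.3 ± 3.55), Serpine2 (1.17 ± 0.243) and Tfpi (0.516 ± 0.0444). Serpinb2 ranked 9th among the 14419 tested genes by this measure. F3 and F2rl1 overlapped between libraries, and the other neighbours in the order did not.

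In LC-/- KCs the order differed in one place, Plaur (349 ± 48.2) and Plau (325 ± 14.8) then overlapping at the fourth and the fifth rank. F3 (3504 ± 766) there lay above F2rl1 (1834 ± 89.2) in all libraries, and Serpinb2 (55728 ± 12639) ranked 3rd among all tested genes. In WT DETCs Serpinb2 was again first (4174 ± 1005), followed by F2rl1 (565 ± 68.3), F3 (223 ± 41.6), Plaur (171 ± 27.1) and Plau (75.3 ± 13.7), with no overlap between neighbours. The order of these 5 was the same in the 2 LC-/- DETC libraries, where F3 was at 645 ± 151 and F2rl1 at 1026 ± 206 (SD, n = 2). These DETC levels include any keratinocyte RNA in the libraries, from which DETC expression of F3, Serpinb2 and Plau cannot be told apart.

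**Figure D4:**
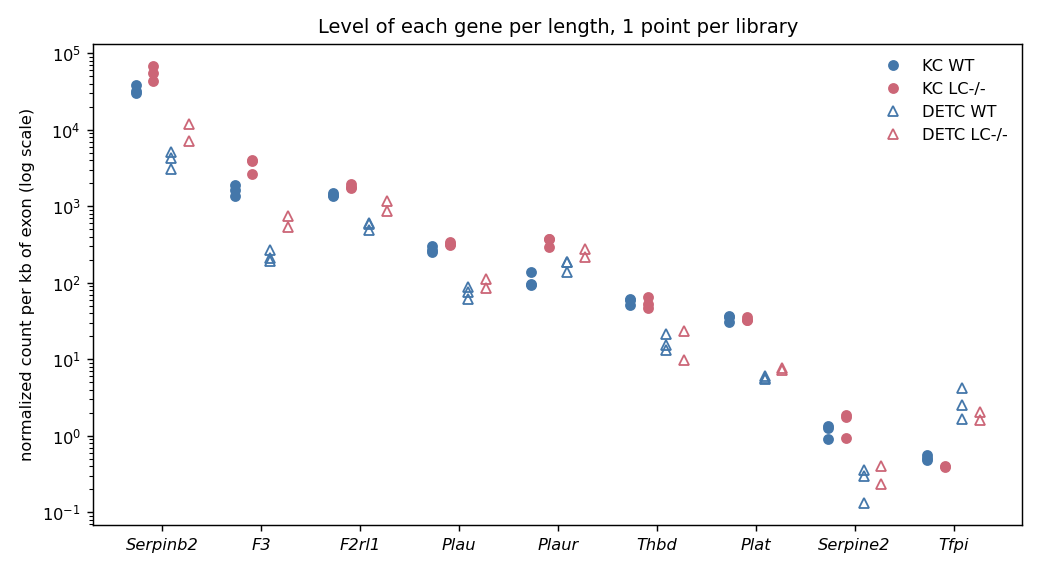
Normalized counts per kb of exon (log axis, 1 point per library, the LC-/- KC library with no Tfpi read left out) for the 9 genes, ordered by their mean in WT KCs, in KCs (filled circles) and DETCs (open triangles) of WT (blue) and LC-/- (red) mice. Serpinb2 lies highest in every library, and Tfpi and Plaur are the genes whose WT DETC points lie above their WT KC points.

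The genes whose pattern was most like that of F3 were sought among 14039 genes, as the smallest root mean square difference of centred log2 values over the 11 libraries. Among the nearest were Slc1a1 (0.200), Epha4 (0.217), Hs3st1 (0.218) and Serpinb2 (0.222), the last itself a member. For Plaur the nearest were Tmcc3 (0.294), Igf2bp2 (0.368), Lrp8 (0.374), Pmp22 (0.384) and Jak2 (0.411). F3 and Plaur were far from each other, at 1.47. This distance includes the difference between populations, as F3 was lower and Plaur higher in WT DETCs than in WT KCs. These are descriptions over libraries that include those used to choose F3 and Plaur.

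Other genes of the pathway were read from 4 lists of 75 genes, 41 of which were tested. The central substrates were not seen: plasminogen (Plg), factor VII (F7) and factor X (F10) had 0 reads in all 11 libraries, where 3 reads correspond to 0.152 to 0.222 CPM. In all, 10 of the 75 genes had no read in any library, 7 of them in the coagulation list.

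In LC-/- KCs, 3 of the 41 list genes rose and 1 fell, against 5.37% and 1.85% of all genes tested. St14, the membrane protease matriptase and a known activator of F2rl1, rose by 0.63 on the log2 scale (SE 0.09, limma adjusted p = 0.0275). Its inhibitor Spint1 rose by 0.39 (SE 0.08, limma adjusted p = 0.0494). S100a10, which with annexin A2 binds plasminogen at the cell surface, rose by 0.32 (SE 0.04, limma adjusted p = 0.0238). Eno1, a glycolytic enzyme that is also a plasminogen receptor and has near-identical copies that could share its reads, changed by -0.45 (SE 0.06, limma adjusted p = 0.0275). No call was made among 7 coagulation genes and 10 further clade B serpins, the family of Serpinb2. Their median log2 differences were -0.12 and -0.15, against -0.01 over all genes tested, and those of the 13 plasminogen partners and of the 11 genes of protease-activated receptors and their activators were 0.12 and 0. After quantile normalization 0 list genes were called higher in KCs and 1 lower. All 4 calls were lost in 5 of the 6 fits that left out 1 KC library. In the fit without LC-/- library 2, limma called 2 list genes higher and 0 lower.

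In LC-/- DETCs, 1 list gene rose and 2 fell, against 3.13% and 0.43% of all genes. F2r, the thrombin receptor PAR1, rose by 0.75 (SE 0.14, limma adjusted p = 0.0329). Mrc2, a collagen receptor that associates with Plaur, changed by -1.07 (SE 0.18, limma adjusted p = 0.0279), and the integrin subunit Itgb3 by -0.76 (SE 0.15, limma adjusted p = 0.0357). After quantile normalization 0 list genes were called higher in DETCs and 2 lower, and without the variance trend 0 were called. No list gene was called without WT DETC library 2, WT library 3 or LC-/- library 2. Between WT populations, 10 of the 41 were higher and 24 lower in DETCs, against 41% and 35.1% of all genes.

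The populations matched their labels: all 17 DETC markers were higher and all 20 keratinocyte markers lower in WT DETCs than in WT KCs. Cd207, which encodes langerin, was at 0 in all 3 LC-/- KC libraries and at 6.1, 26.9 and 15.6 normalized counts in WT KCs. In DETCs it was at 21.8, 16.5 and 46.7 in WT libraries, and at 0 and 4.42 in LC-/- libraries 2 and 3. Cd207 transcripts were thus counted in all 6 WT libraries and in 1 LC-/- library of cells sorted as langerin-negative. Of the 11 tested genes in a list of 15 Langerhans cell markers, limma called 3 lower and Epcam higher in LC-/- KCs. Over all tested genes, 1.85% were called lower and 5.37% higher. In LC-/- DETCs limma called 4 lower and again Epcam higher, against 0.43% and 3.13% of all tested genes. The summed level of 15 immediate early and dissociation genes was 489008 to 504340 in WT KCs and 438384 to 523416 in LC-/- KCs, where 0 of the 15 were called by limma. In DETCs it was 368413 to 431684 in WT and 457830 to 514934 in LC-/- libraries, with 1 of 15 called (Ier3, 0.46). The part of these genes in the DETC differences of F3, Serpinb2 and F2rl1 was not tested. The 10 endothelial markers, a cell type rich in Thbd, Tfpi and Plat, summed to 20.4 to 52.9 normalized counts over the 11 libraries.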

How the data were processed

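Reads were trimmed (cutadapt), mapped to GRCm38 (hisat2) and summed per gene (featureCounts) by the authors, who deposited counts divided by DESeq2 size factors, a signal table of 11 libraries and 52550 genes. Whether counting used strand is not given in the sources used here. Whole reads were recovered from the steps of the low values (100% of values within 0.01 reads). Symbols and positions came from GENCODE on GRCm38 (52403 IDs matched), promoters from RefSeq.

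Genes over 1 CPM in at least 2 libraries were tested with limma 3.58.1 (variance trend, R 4.3.3) on log2(normalized count + 1), which understates changes of low genes. Tests were two-sided with Benjamini-Hochberg adjustment over 14419 genes and a threshold of 0.05. DESeq2 1.42.0 and edgeR 4.0.16 on recovered reads, other scalings, pseudocounts and filters, and leaving out each library were alternatives. Code was tested on simulated data. Named were all members, list genes called between genotypes, and the 5 genes nearest to F3 and to Plaur (mean normalized count of at least 10). Some genes that this rule or the lists cover are not reported here. Members and lists were chosen with earlier results of these data known. Libraries were labelled by genotype, and p-values set a group difference against the spread between libraries of the same group.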

Additional observations from a re-analysis of the deposited data

How the results depend on the processing

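In WT DETCs against WT KCs, all 7 members kept their direction and their side of the threshold under every alternative run. Quantile normalization moved the median of all genes there from 0.07 to -0.24 on the log2 scale and the share of higher calls from 53.9% to 41.3%, and Plaur then differed by 0.47. With the number in the library titles as a replicate block, 7 members and 35 list genes were called (34 without it). The labels do not say that equal numbers mark 1 animal, and deviations of KC and DETC libraries with the same number correlated at -0.05, 0.07 and 0.12 for WT, and at 0.14 and 0.12 for LC-/- animals.

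In DETCs, 3 members were called between genotypes, 0 without the variance trend and 1 to 3 with 1 library left out. Without the trend 0 of 14419 genes passed with limma, although the unadjusted p was below 0.05 for 1554 that lay higher and 853 that lay lower. DESeq2 called 1079. In DETCs 514 genes were called in all. The separate totals were 483 with edgeR, 263 with quantile normalization (67.7% of them higher, against 87.9%), 959 with all libraries in 1 fit, and 35 to 590 with 1 library left out. Serpinb2 did not pass under quantile normalization (adjusted p = 0.106, limma) or with a mean of at least 10 (adjusted p = 0.0518, limma). Its alternatives ranged from 0.0175 to 0.208. Thbd changed direction with 1 library left out (-0.70 to 0.52; 0.10 without WT library 1 and 0.52 without LC-/- library 3) and was never called. List genes called in DETCs were 3, against 6 with DESeq2, 0 without the trend and 0 to 2 with 1 library left out.

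The KC contrast chose the members, so their calls there are no test and these counts only describe the fit. It called 3 members, and 0 to 3 with 1 library left out: 0 without WT library 1 or 2 or LC-/- library 1 or 3, and 1 without WT library 3. Genes called in KCs were 1042, against 1752 with DESeq2, 1783 with edgeR, 633 with quantile normalization, 1617 without a filter and 5 to 721 with 1 library left out. List genes called were 4, against 8 with DESeq2, 8 with edgeR, 1 with quantile normalization, 9 without a filter and 0 to 2 with 1 library left out. Quantile normalization lowered the KC log2 difference of Serpinb2 from 0.71 to 0.43 and that of F2rl1 from 0.37 to 0.21. Fits with fewer libraries have less power, and the cause of the other changes was not tested. Groups of 2 or 3 libraries limit the precision of each value.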
